A study of Gallus gallus with 12 samples.

Results

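The diet effect in abdominal fat was set against the diet effect in liver, gene by gene, in chickens fed a high-fat diet (HD) or a normal diet (ND). A gene entered when its mean was at least 1 FPKM over the 6 samples of each tissue, and 10570 of the 18332 genes listed did so. FPKM is a fragment count scaled by transcript length and by the fragments mapped in the sample. A further 1903 genes reached this minimum in fat alone, 611 in liver alone and 5248 in neither tissue. Just inside the limit were PLCG2, with means of 4.07 FPKM in fat and 1.00 FPKM in liver, and RAB23, with 20.2 and 1.00 FPKM. Just outside it were ZNF423, with 17.7 and 0.998 FPKM, and ASAP1, with 3.77 and 0.998 FPKM. A diet effect is the mean of log2(FPKM + 1) in the HD samples minus that in the ND samples. The difference of effects is the effect in fat minus the effect in liver, and the shared effect is the average of both. On this scale the change of a gene with few FPKM is understated.

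All birds were female dwarf-type Xinghua chickens with the dw gene, a mutation of the growth hormone receptor, and were 8 weeks old when the diets began. The HD group received a diet with 25% fat and the ND group a diet with 5% fat, both for 2 weeks. RNA of both tissues was sequenced from 3 birds per diet, which gave 12 samples. The authors picked HD birds with a higher and ND birds with a lower abdominal fat rate, so that the groups differ in fatness by selection as well as in diet, and the dw mutation is carried by the ND controls too.

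In birds the liver is the main site of fatty acid synthesis, and it exports triglyceride in lipoproteins. Adipocytes take up the fatty acids from lipoproteins and store them as triglyceride. The same food therefore reaches a tissue that makes lipid and a tissue that stores it, and the comparison asks which genes and functions moved in opposite directions, in both tissues alike or in a single tissue.

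The samples expressed the markers of their labelled tissue. The summed level of 8 adipocyte markers, among them FABP4, PLIN1 and ADIPOQ, was 12918 to 15883 FPKM in the fat samples and 121 to 290 FPKM in the liver samples. The summed level of 12 hepatocyte markers was 117784 to 139893 FPKM in liver. In fat the same sum was 683 to 1124 FPKM in the HD samples and 2676, 6077 and 2584 FPKM in ND replicates 1, 2 and 3. The high value of ND fat replicate 2 held liver plasma protein transcripts, since ALB, serum albumin, was at 2887 FPKM there and at 0.86 to 70.0 FPKM in the other 5 fat samples. In ND replicates 1 and 3 the sum was mostly APOA1, and only 3 of the 12 markers were higher in all ND than in all HD fat samples. B and plasma cell markers summed to 3668 FPKM in ND fat replicate 1 against 13.7 to 51.3 FPKM in the other fat samples, and to 606 and 367 FPKM in ND liver replicates 1 and 2 against 47.0 to 84.5 FPKM in the other liver samples. Skeletal muscle markers summed to 415 FPKM in HD fat replicate 1 and to 16.4 to 60.6 FPKM in the other fat samples. Genes at 1 FPKM or more numbered 12221 to 12492 in fat and 10799 to 11270 in liver. The 10 most abundant genes took 9.30% to 9.95% of the summed FPKM in fat and 25.6% to 30.1% in liver. Depth is unknown, since FPKM values alone were given.

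**Figure D1:**
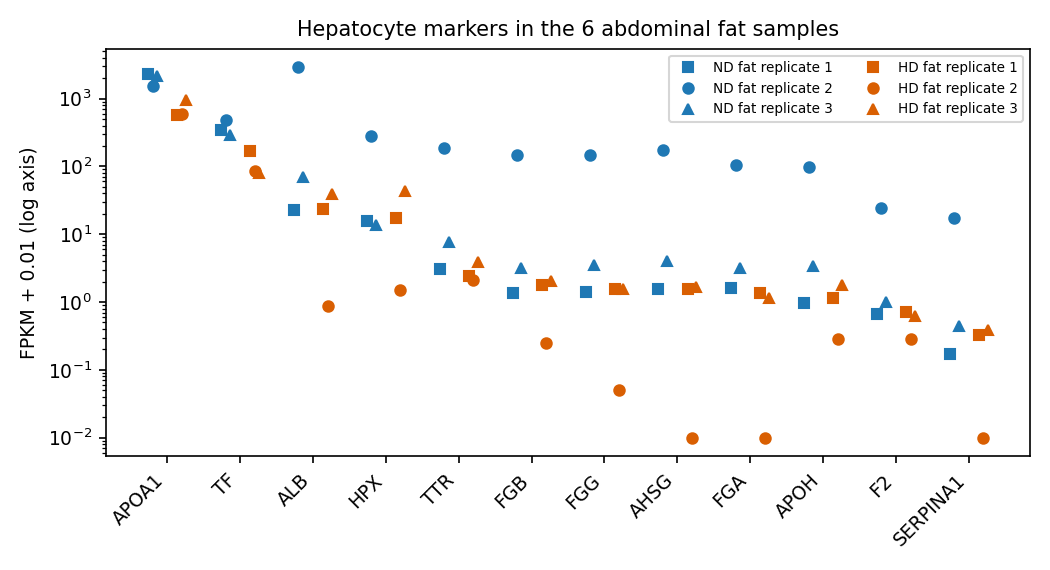
Level of each of 12 hepatocyte markers (FPKM + 0.01, log axis) in the 3 ND (blue) and 3 HD (orange) samples of abdominal fat, with 1 symbol per replicate. ND fat replicate 2 stands above the other 5 samples for ALB (2887 FPKM) and for the 9 markers to its right, while APOA1 is high in all 3 ND samples.

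The diet effect was larger in liver than in abdominal fat. The median size of the effect was 0.20 in liver and 0.13 in fat, and 6656 genes (63.0%) had the larger effect in liver. The median SD within groups was also larger in liver, at 0.204 against 0.168 in fat. By limma with Benjamini-Hochberg adjustment over 10570 genes, 76 genes rose (0.719% of those tested) and 24 fell (0.227%) in liver at an adjusted p of at most 0.05. In fat 0 genes passed in either direction (0%), and the smallest adjusted p was 0.289. These calls use a spread estimated over both tissues. Separate fits per tissue gave 2 higher and 5 lower in liver, and 0 higher and 1 lower in fat. At an unadjusted p below 0.05, limma gave 316 genes higher (2.99%) and 333 lower (3.15%) in fat, and 1764 higher (16.7%) and 543 lower (5.14%) in liver. With bulk RNA, fewer cells of a type and less RNA per cell cannot be told apart.

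The number of liver calls rested on single libraries. Without ND liver replicate 1 the calls were 865 higher and 153 lower and held all of the 100 genes, and without ND liver replicate 2 they were 7 higher and 4 lower and held 8 of them. Genes said below to have risen or fallen in liver passed in the fit of all 12 samples, and GPAM and MOGAT1 passed under each of the 22 alternatives in which they were fitted. Other calls held less often. In liver PDIA6 passed under 7 of 23 alternatives, ST13 and ACP5 under 8 of 23, and ACSL5 under 8 of 22. LDHB and PPP1R3C passed under 10 of 23.

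The tissues were compared directly through the difference of effects. It passed for 1 gene, GPAM, whose effect was lower in fat than in liver (0.00946% of the genes tested), and for 0 genes whose effect was higher in fat (0%). At an unadjusted p below 0.01, the effect was higher in fat for 107 genes (1.01%) and lower for 300 genes (2.84%). This excess of lower values went with a shift of the whole distribution, since the median effect of all genes was -0.03 in fat, 0.09 in liver and -0.12 for the difference. With quantile normalization the median difference was 0.01 and the counts at this p were 223 higher and 187 lower, and with median centring they were 243 and 190. Without ND liver replicate 1, 5 genes passed as higher and 33 as lower, without ND fat replicate 2 they were 3 and 2, and without ND fat replicate 3 they were 0 and 4.

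Both effects were higher in HD for 2807 genes and lower for 2188, while 1862 genes were higher in fat and lower in liver and 3713 the reverse. The same sign was thus found for 47.3% of the genes. All HD samples lay above all ND samples in 630 genes (5.96%) in fat and 1699 (16.1%) in liver, and below them in 945 (8.94%) and 677 (6.4%). In 159 genes (1.5%) the 3 HD samples lay on the same side of the 3 ND samples in both tissues, with no overlap, 99 higher (0.937%) and 60 lower (0.568%), and in 191 genes (1.81%) on opposite sides. The opposite pattern was mostly that of lower fat and higher liver values, with 137 genes (1.3%), against 54 genes (0.511%) for the reverse. The shares within each tissue lean the same way, with more genes below in fat and more above in liver. The excess is therefore not read as a result about genes that moved in opposite directions. Both tissues came from the same 3 birds per diet, so that these counts are not over independent sets of animals, while the labels do not say which fat and liver samples belong to a bird.

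Genes were sorted into classes by the difference of effects at an unadjusted p below 0.01, with 0.25 as the limit on the log2 scale under which an effect was treated as near 0. Opposite effects were found in 34 genes that were higher in HD fat and lower in HD liver, and in 99 genes with the reverse. In 23 genes the effect was limited to fat and higher, in 12 limited to fat and lower, in 188 limited to liver and higher, and in 46 limited to liver and lower. Limited to fat means only that the liver effect was under 0.25, since no lower limit was set on the fat effect. Another 5 genes had effects of the same direction and unequal size. A shared effect at the same p, read on the average, was found for 94 genes that were higher in both tissues and 69 that were lower. The direction of these classes moved with the shift of the median: with quantile normalization the opposite classes held 61 and 44 genes and the liver-limited classes 132 and 123, and with median centring they held 86 and 57 and 122 and 128. Apart from GPAM, no gene of the classes built on the difference passed the adjusted threshold, and their adjusted p ran from 0.128 to 0.257.

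**Figure D2:**
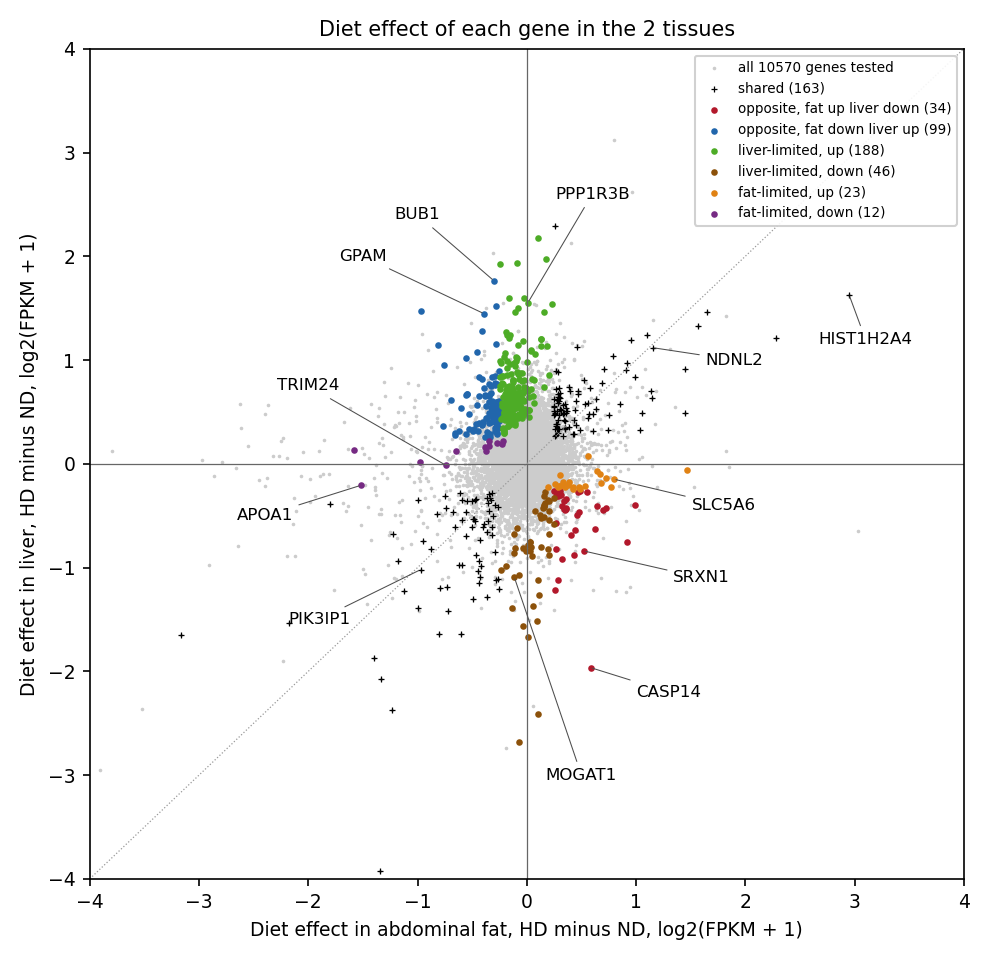
Diet effect in liver (vertical axis) against diet effect in abdominal fat (horizontal axis), both HD minus ND in log2(FPKM + 1), for the 10570 genes tested. Coloured points are the classes at an unadjusted p below 0.01 with their numbers of genes, and the dotted line marks equal effects. GPAM and BUB1 stand at the upper left, CASP14 at the lower right and NDNL2 near the dotted line.

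GPAM encodes the mitochondrial glycerol-3-phosphate acyltransferase, which attaches the first fatty acid to glycerol phosphate and so begins the synthesis of triglyceride and phospholipid. In abdominal fat its levels were 2.35, 2.09 and 2.10 FPKM in the HD samples and 3.32, 3.39 and 2.83 FPKM in the ND samples. In liver they were 46.9, 52.1 and 39.5 FPKM in the HD samples and 13.8, 18.0 and 17.1 FPKM in the ND samples. All HD samples were below all ND samples in fat and above them in liver. The effect was -0.39 ± 0.13 (SE) in fat, at an unadjusted p of 0.012 (limma), and 1.45 ± 0.13 in liver, at an adjusted p of 0.00256 (limma). The difference of effects was -1.84 ± 0.18, with an adjusted p of 0.00755 by limma. GPAM passed under 21 of 22 alternatives, with a difference of -2.02 to -1.69 and adjusted p of 0.00133 to 0.103. The exception was the replicate block that treats same-numbered fat and liver samples as 6 birds, where the adjusted p was 0.103 (limma), and the fit of all 12 samples takes no account of birds.

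Among the genes higher in HD fat and lower in HD liver, CASP14, a caspase known in mammals from the cornifying epidermis, had the smallest p. Its levels in liver were 0.72, 1.31 and 2.03 FPKM in the HD samples and 7.43, 8.78 and 7.68 FPKM in the ND samples. In fat they were 1.91, 3.23 and 5.28 FPKM in HD and 1.64, 1.65 and 2.28 FPKM in ND. The liver groups did not overlap and the fat groups did. CASP14 fell in liver by 1.96 on the log2 scale (adjusted p 0.0122, limma), and the difference of effects was 2.55 ± 0.38, with an adjusted p of 0.128 by limma. It passed when ND liver replicate 1 was left out, with a difference of 2.59 and an adjusted p of 0.0476.

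SRXN1, sulfiredoxin, which restores over-oxidised peroxiredoxins, separated the diets in both tissues. In fat it was at 56.4, 64.3 and 61.8 FPKM in HD and at 33.6, 47.1 and 46.6 FPKM in ND. Its liver levels were 10.5, 11.2 and 18.1 FPKM in HD and at 22.9, 27.8 and 21.3 FPKM in ND. The effects were 0.52 ± 0.20 in fat and -0.84 ± 0.20 in liver. SLC35F6, a solute carrier, showed the same full separation with smaller effects, 0.32 in fat and -0.40 in liver. HSPB8, a small heat shock protein, was at 52.5 ± 3.66 FPKM (SD, n = 3) in HD fat and at 33.4 ± 5.28 FPKM in ND fat, while in liver it lay at 1.42 ± 0.504 and 2.16 ± 0.251 FPKM. The water channel AQP1, listed as RP5-877J2.1 and named from the RefSeq table, was at 136, 101 and 197 FPKM in HD fat and at 59.9, 77.9 and 72.4 FPKM in ND fat. Its liver levels of 6.37 to 9.59 FPKM in HD and 9.21 to 12.5 FPKM in ND overlapped. METRN, the secreted factor meteorin, and ENPP6, a choline-specific phosphodiesterase, fell in liver by 0.82 and 1.22 on the log2 scale (adjusted p 0.0275 and 0.0378, limma). Their effect in fat was 0.26 for each. TRIM47, a TRIM family ubiquitin ligase, had effects of 0.33 in fat and -0.92 in liver.

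Of the 34 genes of this class, 18 separated the diets in fat, 25 in liver and 11 in both. Without ND fat replicate 2 the difference was still at a p below 0.01 for 29 of them, and without ND liver replicate 1 for 26. Over all genes, 5.96% lay higher in HD fat with no overlap, 6.4% lower in HD liver and 0.511% both. The class was chosen by these same values, so such counts are no separate support for it.

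The reverse class, lower in HD fat and higher in HD liver, was led by GPAM. BUB1, the kinase of the mitotic spindle checkpoint, was at 6.11, 7.25 and 4.70 FPKM in HD liver and at 0.92, 0.98 and 1.24 FPKM in ND liver. It rose in liver by 1.77 ± 0.25 (adjusted p 0.0122, limma). In fat it was at 1.68, 1.42 and 1.00 FPKM in HD and at 2.37, 2.88 and 0.86 FPKM in ND, and these groups overlapped. Of the 23 cell cycle genes tested, BUB1 was the only gene that passed in liver, and CDK1, the mitotic kinase, had effects of -0.10 in fat and 0.35 in liver.

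ABCB11, the bile salt export pump of the hepatocyte, was at 48.5, 56.4 and 46.8 FPKM in HD liver and at 26.8, 26.2 and 30.2 FPKM in ND liver. In fat it was at 0.84, 0.76 and 0.52 FPKM in HD and at 1.46, 1.92 and 0.71 FPKM in ND, where the highest value belonged to ND replicate 2. The HD fat values were all under 1 FPKM, so ABCB11 reached the minimum in fat only through ND values. Its lower level in HD fat is therefore no support for a fall there. The liver effect was 0.84 ± 0.18, at an adjusted p of 0.0522 (limma). PRRG1, a membrane protein with a Gla domain, rose in liver from 3.62 ± 0.585 FPKM (SD, n = 3) to 10.3 ± 1.97 FPKM (adjusted p 0.0166, limma) and was at 13.2 ± 2.09 FPKM in HD fat against 18.1 ± 4.86 FPKM in ND fat. PPP1R16B, a targeting subunit of protein phosphatase 1, rose in liver by 1.08 (adjusted p 0.0358, limma) and had an effect of -0.46 in fat. LRRC8D, a subunit of volume-regulated anion channels, ITSN2, an endocytic scaffold, and TMCO3 had effects of -0.41, -0.44 and -0.27 in fat and of 0.82, 0.65 and 0.47 in liver. TMCO3 separated the diets in both tissues, at 3.93 to 4.95 FPKM in HD fat against 5.35 to 5.61 FPKM in ND fat, and at 1.9 to 2.06 FPKM in HD liver against 1.06 to 1.21 FPKM in ND liver.

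Of these 99 genes, 73 separated the diets in fat, 71 in liver and 47 in both. The p of the difference stayed below 0.01 for 74 of them without ND fat replicate 2 and for 86 without ND liver replicate 1. Over all genes, 8.94% lay lower in HD fat with no overlap, 16.1% higher in HD liver and 1.3% both. This class too was chosen by these same values, so such counts are no separate support for it. Of the 99, 3 were at least 10 times as abundant in ND liver as in ND fat, a share near that of all genes tested (264 genes, 2.5%). Such genes were 2 of the 12 limited to fat and lower, and 7 of the 69 with a shared lower effect. The hepatocyte marker sum was 2584 to 6077 FPKM in ND fat and 683 to 1124 FPKM in HD fat. In ND replicates 1 and 3 it was mostly APOA1, and only 3 of the 12 markers were higher in all ND than in all HD fat samples. The part of liver transcripts in these effects was not tested.

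**Figure D3:**
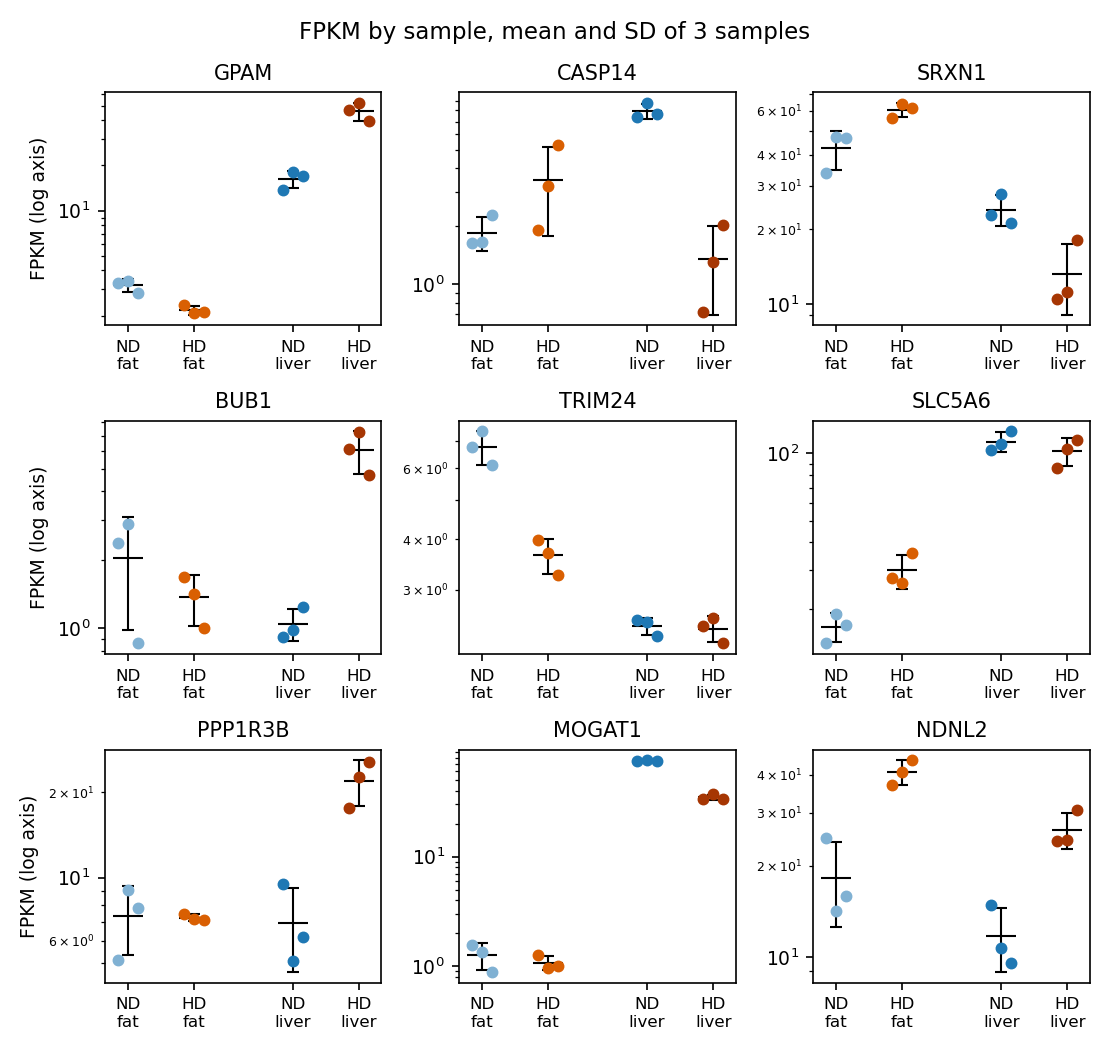
FPKM (log axis) of 9 genes in each of the 12 samples, with points for samples and the mean and SD of 3 samples as bars. GPAM lies lower in HD than in ND in fat and higher in liver, SRXN1 shows the reverse, TRIM24 and SLC5A6 separate the diets in fat alone, PPP1R3B and MOGAT1 in liver alone, and NDNL2 is higher in HD in both tissues.

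The liver-limited class was the most numerous. ASMTL, a protein related to acetylserotonin methyltransferase, was at 22, 26.8 and 29.9 FPKM in HD liver and at 11.8, 7.77 and 11.5 FPKM in ND liver. In fat its levels were 5.36 to 6.70 FPKM in HD and 6.45 to 7.64 FPKM in ND. The liver groups were fully apart and the fat groups overlapped, and ASMTL rose in liver by 1.27 ± 0.16 (adjusted p 0.0122, limma).

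BASP1, a membrane-bound signalling protein, rose in liver from 56.4 ± 9.90 to 131 ± 7.91 FPKM (adjusted p 0.0122, limma) and was at 63.2 ± 15.3 FPKM in ND fat and 55.4 ± 4.63 FPKM in HD fat (SD, n = 3). COMTD1, a putative methyltransferase, rose from 24.2 ± 5.95 to 70.5 ± 18.3 FPKM in liver (adjusted p 0.0122, limma), with 6.37 ± 0.956 and 5.95 ± 0.376 FPKM in ND and HD fat. LBR, the lamin B receptor of the inner nuclear membrane, which also has sterol reductase activity, rose in liver by 0.54 (adjusted p 0.0250, limma), and its fat levels of 16.7 to 17.7 FPKM in HD and 19.8 to 20.3 FPKM in ND did not overlap either. RTCA, an RNA cyclase, NFX1, a nuclear zinc finger factor, and C1H11ORF54 rose in liver by 0.78, 0.85 and 0.99, each at an adjusted p of 0.0166 (limma). Their effects in fat were -0.23, -0.22 and -0.24. The 188 genes of this class had a median effect of 0.63 in liver and -0.13 in fat.

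Among the genes lower in HD liver, MOGAT1, a monoacylglycerol acyltransferase that makes diacylglycerol from monoacylglycerol, was at 33.6, 37.0 and 33.9 FPKM in HD and at 75, 75.8 and 75.1 FPKM in ND. In fat it was at 0.96 to 1.26 FPKM in HD and at 0.88 to 1.57 FPKM in ND. It fell in liver by 1.09 on the log2 scale (adjusted p 0.00783, limma), with no overlap of the groups, while the fat groups overlapped. MOGAT1 and GPAM thus supply glycerolipid synthesis by separate routes and moved in opposite directions in the same livers.

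SLC41A3, a magnesium transporter, was at 19.5, 24.5 and 17.2 FPKM in HD liver and at 43.7, 64.2 and 54.9 FPKM in ND liver, and fell by 1.37 (adjusted p 0.0122, limma). TMEM120A, a nuclear envelope and membrane protein, fell from 20.1 ± 2.04 to 10.7 ± 0.396 FPKM (SD, n = 3, adjusted p 0.0122, limma), and in fat it was at 36.7 ± 0.496 FPKM in ND and 36.5 ± 3.25 FPKM in HD. OAT, ornithine aminotransferase, was at 16.5, 12.9 and 25.3 FPKM in HD liver and at 53.1, 34.7 and 44.7 FPKM in ND liver, and at 61.4 to 74.8 FPKM in all fat samples. It fell in liver by 1.26 (adjusted p 0.0223, limma). ASPG, an asparaginase, and MRPL38, a mitochondrial ribosomal protein, fell in liver by 1.03 and 0.98 (adjusted p 0.0122 for both, limma), with effects of -0.23 and -0.19 in fat. DLST, a subunit of the oxoglutarate dehydrogenase complex of the citric acid cycle, and DTX4, a ubiquitin ligase, did not pass in liver, with effects of -0.33 and -0.55 there and of 0.25 and 0.20 in fat.

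All 46 genes of the class lower in liver separated the diets in liver and 9 of them also in fat. Of the 188 genes higher in liver, 184 separated the diets in liver and 40 in fat. Over all genes, 6.4% lay lower and 16.1% higher in HD liver with no overlap, and 5.96% lay higher and 8.94% lower in HD fat. The difference stayed at a p below 0.01 for 23 of the 46 without ND fat replicate 2 and for 33 without ND liver replicate 1. For the 188 genes higher in liver these numbers were 127 and 166. Both classes were chosen by these same values, so the counts are no separate support for them.

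The fat-limited classes were small. SLC5A6, the sodium-dependent carrier of biotin and pantothenate, was at 27.5, 26.2 and 35.8 FPKM in HD fat and at 14.1, 19.0 and 17.1 FPKM in ND fat. Its liver levels were 86.3 to 115 FPKM in HD and 103 to 125 FPKM in ND. The fat groups were apart and the liver groups overlapped, with effects of 0.80 ± 0.16 in fat and -0.15 ± 0.16 in liver. CHRD, the bone morphogenetic protein antagonist chordin, was at 30.5 ± 0.968 FPKM in HD fat and 22.5 ± 0.936 FPKM in ND fat (SD, n = 3), and at 2.46 ± 0.314 and 3.12 ± 0.700 FPKM in liver. MST1R, the receptor of macrophage stimulating protein, CTDNEP1, a nuclear envelope phosphatase that acts on lipin, and OST4, a subunit of the oligosaccharyltransferase, had effects of 0.68, 0.33 and 0.38 in fat and -0.18, -0.18 and -0.21 in liver. CYSTM1, WSB2 and DHRS7 had effects of 0.48, 0.30 and 0.35 in fat and of -0.24, -0.21 and -0.22 in liver. None of these genes passed in fat, where adjusted p was at least 0.289 by limma. With median centring the liver effects of CHRD, CYSTM1, WSB2 and DHRS7 were -0.34, -0.34, -0.31 and -0.32, past the limit of 0.25. Those of MST1R, CTDNEP1 and OST4 were -0.27, -0.27 and -0.30, so the limit to fat depends on the scaling. All 23 genes of this class separated the diets in fat and 8 of them also in liver. Over all genes, 6.4% lay lower and 16.1% higher in HD liver with no overlap.

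TRIM24, a transcriptional cofactor of nuclear receptors, had the smallest p of all genes in fat. It was at 3.98, 3.70 and 3.27 FPKM in HD fat and at 6.77, 7.41 and 6.12 FPKM in ND fat, and at 2.21 to 2.56 FPKM in HD liver and 2.30 to 2.52 FPKM in ND liver. The effect was -0.74 ± 0.11 in fat, with an adjusted p of 0.289 by limma, and -0.01 ± 0.11 in liver. EP300, a histone acetyltransferase, was at 11.3 to 13.1 FPKM in HD fat against 14.3 to 16.1 FPKM in ND fat. GOLM1, a Golgi membrane protein, BFAR and C2H6ORF62 had effects of -0.65, -0.22 and -0.34 in fat and of 0.13, 0.22 and 0.17 in liver.

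Both remaining genes named in this class are abundant in liver. APOA1, the main apolipoprotein of high-density lipoprotein, was at 575, 592 and 951 FPKM in HD fat and at 2287, 1526 and 2183 FPKM in ND fat, against 18983 to 38825 FPKM in liver. HSD11B1b, a gene of the glucocorticoid-activating dehydrogenase family, was at 4.59, 2.43 and 1.64 FPKM in HD fat and at 12.4, 17.0 and 4.62 FPKM in ND fat, against 271 to 361 FPKM in liver. The fat effects were -1.52 ± 0.29 for APOA1 and -1.58 ± 0.37 for HSD11B1b. ND fat replicate 2, with the hepatocyte marker sum of 6077 FPKM, was the highest of the ND samples for HSD11B1b and the lowest for APOA1. Without that sample the p of the difference was 0.0044 for APOA1 and 0.016 for HSD11B1b (limma, unadjusted), and the part of liver transcripts in these values was not tested.

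DGAT2, a diacylglycerol acyltransferase that completes triglyceride synthesis, was looked at after its values were seen. It was at 556, 448 and 628 FPKM in HD fat and at 65.4, 424 and 125 FPKM in ND fat, and at 0.80 to 1.35 FPKM in all liver samples. ND fat replicate 2 lay close to the HD samples and the other ND samples far below them. The difference of effects was 1.69 ± 0.69 with an adjusted p of 0.3 by limma, and 2.43 with an adjusted p of 0.0309 without that replicate.

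Shared effects passed for 1 gene that was higher and 1 that was lower in HD (0.00946% each). NDNL2, a MAGE family subunit of the complex of SMC5 and SMC6 that acts in DNA repair, was at 36.9, 40.9 and 44.7 FPKM in HD fat and at 24.8, 14.2 and 15.9 FPKM in ND fat. In liver the levels were 24.2, 24.4 and 30.5 FPKM in HD and at 14.9, 10.7 and 9.57 FPKM in ND. The groups were apart in both tissues, with effects of 1.15 ± 0.21 in fat and 1.12 ± 0.21 in liver. The shared effect was 1.14 ± 0.15 with an adjusted p of 0.0453 (limma), and it passed under 9 of 22 alternatives, with adjusted p of 0.00678 to 0.175. The second gene, LOC107051144, has no name in the files. It was at 9.64 to 11.9 FPKM in HD fat and 13.9 to 19.5 FPKM in ND fat, and at 12.2 to 14.5 FPKM in HD liver and 29.6 to 37.1 FPKM in ND liver. Its shared effect was -0.90 with an adjusted p of 0.0309 (limma), and it passed under 14 of 22 alternatives. Both calls come from the fit that takes no account of birds. With birds, paired by replicate number, as a random effect, 0 genes passed for the shared effect, and the smallest adjusted p was 0.0611 (limma).

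At an unadjusted p below 0.01, 2.63% of all genes had a higher and 1.28% a lower average effect. Among the genes higher in both tissues, SARS, the seryl-tRNA synthetase, was at 39.6 to 41.7 FPKM in HD fat and 31.6 to 35.7 FPKM in ND fat, and at 40.8 to 46.7 FPKM in HD liver and 27.2 to 30.7 FPKM in ND liver. MTFMT, which formylates the initiator tRNA of mitochondria, also separated the diets in both tissues, with effects of 0.46 in fat and 0.67 in liver. GRPEL1, a cochaperone of mitochondrial protein import, had effects of 0.38 and 0.35, ST13, a cochaperone of HSP70, of 0.25 and 0.62, and GYG1, the glycogenin that primes glycogen, of 0.30 and 0.64. SARS, MTFMT and ST13 rose in liver (adjusted p 0.0166, 0.0366 and 0.0420, limma).

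Among the genes lower in both tissues, PIK3IP1, an inhibitor of phosphoinositide kinase, was at 78.5, 61.2 and 45.5 FPKM in HD fat and at 139, 97.2 and 125 FPKM in ND fat. Liver levels were 9.76, 17.0 and 14.2 FPKM in HD and at 21.7, 28.9 and 35.2 FPKM in ND. The groups did not overlap in either tissue, and the effects were -0.97 ± 0.25 and -1.02 ± 0.25. SLC16A1, a carrier of lactate and ketone bodies, was at 22.9 to 31.0 FPKM in HD fat against 43.5 to 57.8 FPKM in ND fat, and at 101 to 157 FPKM in HD liver against 160 to 181 FPKM in ND liver. ACP5, the tartrate-resistant acid phosphatase of macrophages and osteoclasts, and TRIM65, a ubiquitin ligase, fell in liver by 0.94 and 1.11 (adjusted p 0.0499 and 0.0193, limma), with effects of -0.44 and -0.26 in fat. TCN2, the plasma carrier of cobalamin, and TF, transferrin, had effects of -0.45 and -1.80 in fat and of -1.03 and -0.39 in liver, and TF was among the hepatocyte markers described above.

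Members of gene families with near-identical copies also stood among the shared genes, and their reads may have been divided among copies. HIST1H2A4, a replication-dependent H2A histone, was at 12.8, 9.91 and 12.2 FPKM in HD fat and at 0, 3.30 and 0 FPKM in ND fat, and at 9.04 to 16.5 FPKM in HD liver and 2.30 to 5.72 FPKM in ND liver. CHIR-AB-487, of the chicken immunoglobulin-like receptors, had effects of 0.96 and 1.19. HIST1H103 and HIST1H46L6 were lower, with effects of -1.12 and -1.34 in fat and of -1.22 and -2.07 in liver.

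Functions were then described with 24 hand-written gene lists. The members of a list were measured in the same samples, so counts of members or of signs are not over independent observations. For each sample the median deviation of a list's members from their group means was taken. Its SD within groups was 0.13 for the respiratory chain, 0.12 for ribosomal proteins and 0.21 for interferon response genes. For genes of the major histocompatibility complex it was 0.24. The 17 fatty acid synthesis genes tested had a median effect of 0.06 in fat and 0.50 in liver, against -0.03 and 0.09 over all genes. At an unadjusted p below 0.05, 5 of them were higher and 0 lower in liver, against 16.7% and 5.14% of all genes, with 0 in either direction in fat, and 4 had a lower effect in fat than in liver, with 0 higher, against 11.3% of all genes lower and 3.82% higher. FASN, the fatty acid synthase, was at 123, 151 and 280 FPKM in HD liver and at 33.1, 75.7 and 80.8 FPKM in ND liver, with no overlap, while it lay at 41.0 to 52.0 FPKM in HD fat and 33.0 to 55.1 FPKM in ND fat. ME1, the malic enzyme that supplies NADPH, ACACA, the acetyl-CoA carboxylase, and ELOVL5, a fatty acid elongase, had liver effects of 1.53, 1.01 and 0.50 and fat effects of 0.08, -0.15 and -0.03. None of the 17 passed at the adjusted threshold, and the list's median difference of -0.35 was -0.10 without ND fat replicate 2, where that of all genes was -0.13.

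The triglyceride synthesis list held members on both sides. Of 10 genes, 4 had a higher and 2 a lower effect in fat than in liver at an unadjusted p below 0.05, against 3.82% and 11.3% of all genes, and the median difference was -0.06. MOGAT1, DGAT2 and the acyltransferases AGPAT9 and AGPAT2 were on the first side, AGPAT9 and AGPAT2 with effects of 0.06 and 0.30 in fat and of -0.62 and -0.33 in liver. GPAM and AGPAT3 were on the second, AGPAT3 with -0.31 in fat and 0.26 in liver. ACSL5, an acyl-CoA synthetase that activates fatty acids, was at 88.1, 77.5 and 69.6 FPKM in HD liver and at 21.4, 18.9 and 45.8 FPKM in ND liver. It rose in liver by 1.52 ± 0.29 (adjusted p 0.0409, limma) and was at 1.63 to 3.95 FPKM in all fat samples.

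Of 13 genes of lipid droplets and lipolysis, 4 were higher and 2 lower in liver at an unadjusted p below 0.05, against 16.7% and 5.14% of all genes, with 0 in fat. ABHD5, the coactivator of adipose triglyceride lipase, was at 66.4 to 69.2 FPKM in HD fat against 75 to 90.9 FPKM in ND fat, and at 6.72 to 11.6 FPKM in HD liver against 5.03 to 5.30 FPKM in ND liver, so that both tissues separated the diets in opposite directions. PNPLA2, that lipase itself, had effects of 0.33 in fat and -0.49 in liver. PLIN1 and PLIN2, which coat lipid droplets, had liver effects of 0.98 and 0.85 and fat effects of 0.02 and -0.26, and CIDEC, which promotes large droplets, had effects of -1.1 in liver and 0.20 in fat.

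Of 27 genes of fatty acid oxidation, 8 were higher and 6 lower in liver at an unadjusted p below 0.05, against 16.7% and 5.14% of all genes. In fat 0 were higher and 2 lower, against 2.99% and 3.15% of all genes. CPT1A, the carnitine palmitoyltransferase that admits fatty acids to mitochondria, was at 76.0, 75.2 and 41.9 FPKM in HD liver and at 199, 114 and 111 FPKM in ND liver, with no overlap. CPT2, DECR1 and HADH of the mitochondrial pathway had liver effects of 0.65, 0.50 and 0.33. PDK4, the kinase that inhibits pyruvate dehydrogenase, was lower in both tissues, with effects of -0.99 in fat and -0.35 in liver. The sign of the list's median difference, -0.04, turned to 0.08 with median centring and likewise to 0.08 without ND fat replicate 2.

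The cholesterol synthesis list had medians of 0.24 in fat and 0.44 in liver, with positive effects for 21 of 23 genes in fat and for 18 in liver. The SD within groups of the list's median deviation was 0.44, larger than the fat median, so the sign counts are not read as a result. Over all 10570 genes, the effect was positive for 4669 in fat and 6520 in liver. At an unadjusted p below 0.05, 0 genes in fat were past this limit, and 3 were higher and 1 lower in liver, against 16.7% and 5.14% of all genes. The fat median was 0.48 without ND fat replicate 2. Of the 8 bile acid genes tested, 4 were higher in liver and 1 was lower in fat at this p, against 16.7% and 3.15% of all genes, with medians of 0.46 and -0.41. CYP8B1, the sterol hydroxylase of cholic acid synthesis, had effects of 1.5 in liver and -0.38 in fat. The fat median of the bile acid list was -0.04 without that replicate. The list had 15 genes, and those not tested were under the minimum in at least 1 tissue. A gene that reached the minimum in fat through ND values alone, as given above for ABCB11, had to be lower in HD fat. The fat count and median of this list are therefore not read as a fall.

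**Figure D4:**
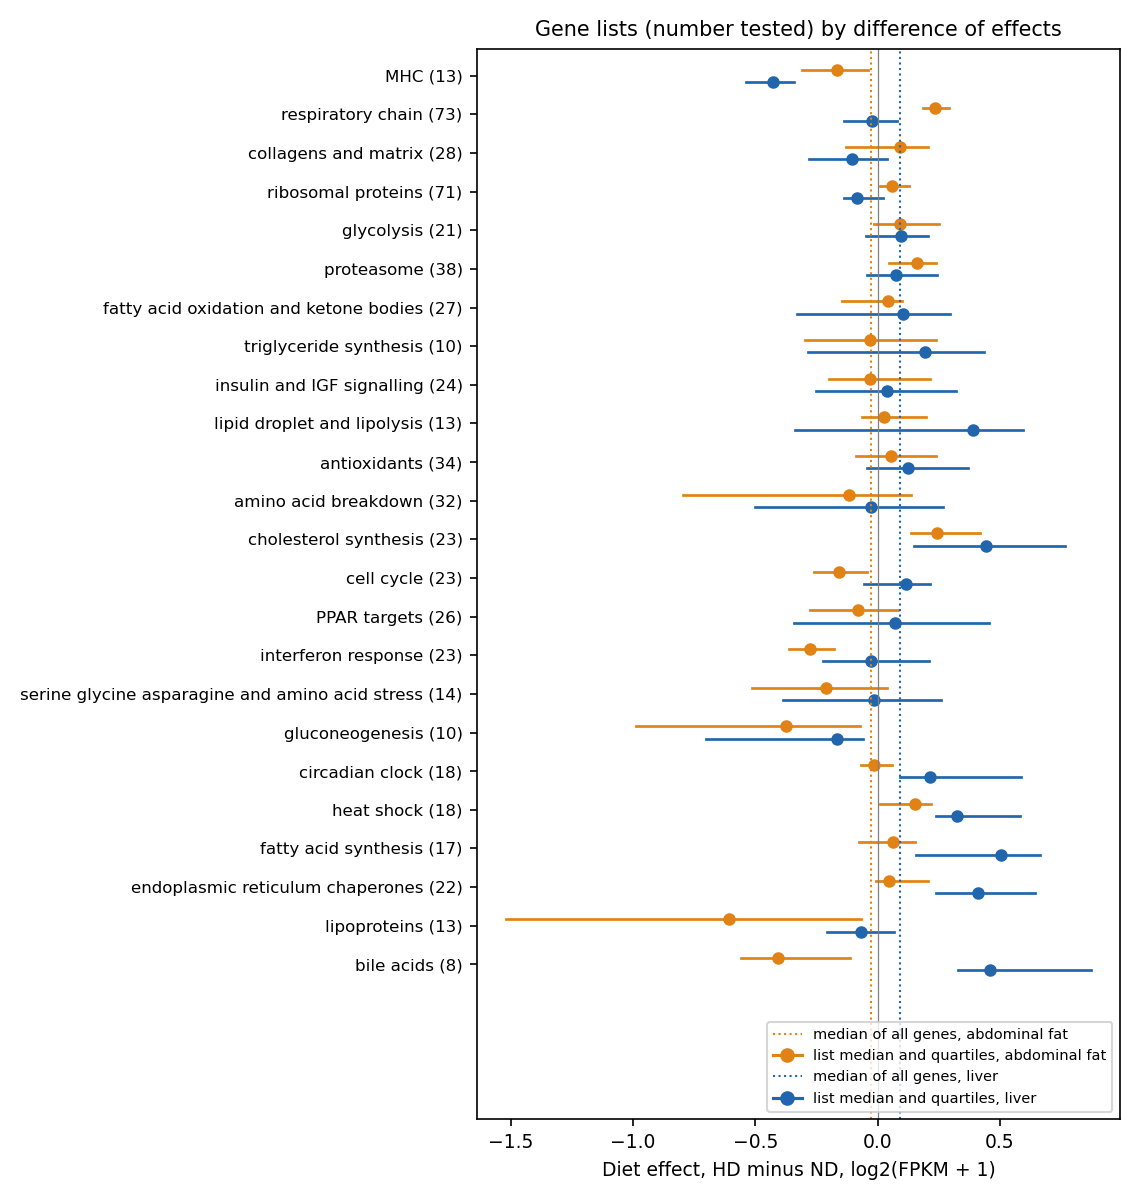
Median diet effect of 24 gene lists in abdominal fat (orange) and liver (blue), in log2(FPKM + 1), with lines from the lower to the upper quartile of the members and the number of genes tested in parentheses. Dotted lines are the medians of all genes, -0.03 in fat and 0.09 in liver. The respiratory chain lies above its fat line and near 0 in liver, and the fatty acid synthesis and endoplasmic reticulum chaperone lists lie above their liver line.

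The respiratory chain passes electrons to oxygen and drives ATP synthesis. The effect was positive in fat for 71 of 73 subunits and in liver for 31, with medians of 0.23 and -0.02. Over all 10570 genes it was positive for 4669 in fat and 6520 in liver. At an unadjusted p below 0.05, 14 subunits were higher in fat and 0 lower, against 2.99% and 3.15% of all genes. The difference of effects was higher for 9 and lower for 0 at that p, against 3.82% and 11.3% of all genes. The subunits with the lowest p in fat included NDUFB2, NDUFB7 and COX7A2, with fat effects of 0.53, 0.41 and 0.34 and liver effects of 0.14, -0.18 and -0.05. ATP5B, the catalytic subunit of ATP synthase, had effects of 0.33 and -0.13. None passed the adjusted threshold. The median difference of 0.27 was 0.23 with quantile normalization and 0.39 with median centring, and 0.33 without ND fat replicate 2. Ribosomal proteins, another abundant list, had medians of 0.06 in fat and -0.08 in liver over 71 genes, and 0 of them in fat and 1 in liver were at a p below 0.05. Their signs leaned the same way, with positive effects for 58 in fat and 20 in liver and a positive difference for 58. The SD within groups of their median deviation was 0.12, larger in size than both medians. These signs are therefore not read as a result.

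Endoplasmic reticulum chaperones, which fold secreted and membrane proteins, had a median effect of 0.04 in fat and 0.41 in liver. Of 22 genes, 12 were higher in liver at an unadjusted p below 0.05, against 16.7% of all genes, and 4 of them passed, against 0.719%, namely HSP90B1, PDIA6, CANX and ERO1LB. In fat 2 genes were higher at that p, against 2.99% of all genes. The difference of effects was lower for 7 and higher for 0, against 11.3% and 3.82% of all genes. HSP90B1, the chaperone GRP94, was at 122, 154 and 209 FPKM in HD liver and at 82.8, 42.0 and 44.4 FPKM in ND liver. It rose in liver by 1.54 ± 0.25 (adjusted p 0.0166, limma). In fat it was at 275 to 291 FPKM in HD and 227 to 261 FPKM in ND, so that both tissues separated the diets in the same direction, with an effect of 0.23 in fat. CANX, calnexin, which holds unfolded glycoproteins, was at 47.5, 56.4 and 66.4 FPKM in HD liver and at 33.0, 32.6 and 35.6 FPKM in ND liver, and rose by 0.72 (adjusted p 0.0250, limma) with an effect of 0.04 in fat. PDIA6, a disulfide isomerase, and ERO1LB, an oxidase that keeps such isomerases active, rose by 0.49 and 0.61 (adjusted p 0.0499 and 0.0242, limma), with fat effects of -0.01 and -0.13. The resident chaperones CRELD2 and HYOU1 had liver effects of 0.87 and 0.66 and fat effects of -0.04 and 0.05. DNAJB11, a cochaperone, was higher in both tissues, with effects of 0.35 and 0.33.

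The cytosolic heat shock list had medians of 0.15 in fat and 0.32 in liver over 18 genes, with 2 higher in liver at a p below 0.05, against 16.7% of all genes, and 0 in fat. Its fat median was 0.04 without ND fat replicate 2. The proteasome, which degrades ubiquitinated proteins, had a shared effect that was higher at an unadjusted p below 0.05 for 10 of 38 subunits and lower for 0, against 9.28% and 4.42% of all genes. Its medians were 0.16 in fat and 0.08 in liver, against -0.03 and 0.09 over all genes. The liver effect was negative for 12 of the 38, and 7 were higher and 2 lower in liver at that p. The liver median was 0.04 with quantile normalization and -0.02 with median centring. PSMA2, a subunit of the outer ring, was at 82.0 to 90.0 FPKM in HD fat and 61.1 to 77.7 FPKM in ND fat, and at 50.8 to 61.1 FPKM in HD liver and 25.9 to 41.7 FPKM in ND liver. PSMA3, PSMB7 and PSMD6 had effects of 0.24, 0.23 and 0.26 in fat and of 0.37, 0.26 and 0.33 in liver.

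**Figure D5:**
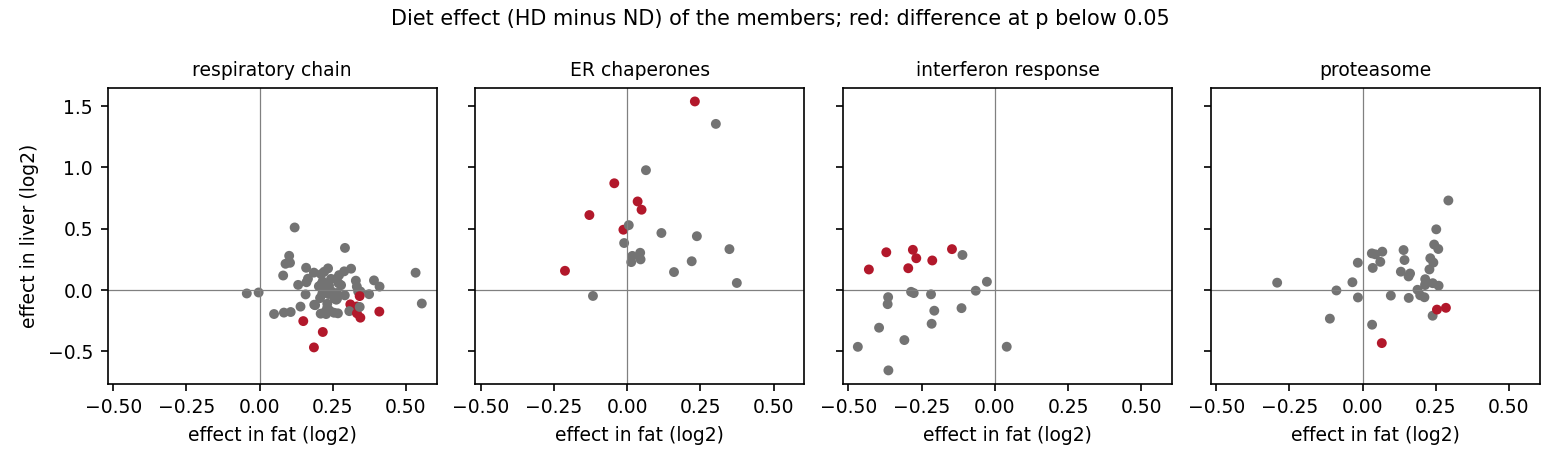
Diet effect in liver against diet effect in abdominal fat, both HD minus ND in log2(FPKM + 1), for the members of 4 lists, with genes in red where the difference of effects had an unadjusted p below 0.05. The respiratory chain is spread to the right of 0 in fat, the endoplasmic reticulum (ER) chaperones above 0 in liver and the interferon list to the left of 0 in fat.

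Interferon response genes are induced by antiviral signalling. The effect in fat was negative for 22 of 23 interferon response genes, against 5901 of all 10570 genes. The list's median was -0.28 in fat and -0.03 in liver. The difference of effects was lower for 7 genes at an unadjusted p below 0.05 and higher for 0, against 11.3% and 3.82% of all genes. The median difference of -0.25 was -0.07 with quantile normalization and -0.13 with median centring, and the liver median was 0.07 without ND liver replicate 1. PARP14, a mono-ADP-ribosyltransferase, IRF1, an interferon regulatory factor, and IFIH1, a sensor of double-stranded RNA, had effects of -0.43, -0.37 and -0.27 in fat and of 0.17, 0.31 and 0.26 in liver. Only PARP14 in fat and PARP9 in liver, with 0.33, were at a p below 0.05 within a tissue. Over all genes, 3.15% were lower in fat and 16.7% higher in liver at that p. The 13 genes of the major histocompatibility complex (MHC) and its peptide loading had a negative average effect without exception, against 4375 of all 10570 genes. The MHC list had medians of -0.17 in fat and -0.43 in liver, and the SD within groups of its median deviation was 0.24. This SD is larger than the size of the fat median, so the sign count is not read as a result. Of the 13 members, 5 were lower on average at a p below 0.05, against 4.42% of all genes. Their fat median was -0.31 without ND fat replicate 2. BF2, a class I heavy chain, was at 444 to 560 FPKM in HD fat and 602 to 922 FPKM in ND fat, and at 484 to 583 FPKM in HD liver and 752 to 1786 FPKM in ND liver, so that both tissues separated the diets. TAP2, the peptide transporter beside it, had effects of -0.68 and -0.46. Class I genes have close paralogs, among which reads may have been divided. B and plasma cell markers were high in ND fat replicate 1 and in ND liver replicates 1 and 2, as given above. T cell markers summed to 22.8 to 30.4 FPKM in HD fat and 28.4 to 51.1 FPKM in ND fat. In liver they summed to 32.0 to 55.6 FPKM in HD and 27.2 to 42.6 FPKM in ND. Macrophage markers summed to 2506 to 2768 FPKM in HD fat and 2937 to 3237 FPKM in ND fat. In liver these were 392 to 749 FPKM in HD and 602 to 1151 FPKM in ND. The part of these cells in the interferon and MHC values was not tested.

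Of 34 antioxidant genes, 10 had a higher and 2 a lower average effect at an unadjusted p below 0.05, against 9.28% and 4.42% of all genes. MGST1, a microsomal glutathione transferase, PRDX1, a peroxiredoxin, and SOD2, the mitochondrial superoxide dismutase, had effects of 0.36, 0.29 and 0.23 in fat and of 0.54, 0.65 and 0.37 in liver. The metal-binding metallothioneins were the 2 that were lower. MT4 was at 140, 59.3 and 87.6 FPKM in HD fat and at 244, 211 and 265 FPKM in ND fat, and at 346, 350 and 78.6 FPKM in HD liver and 385, 1362 and 908 FPKM in ND liver. MT3 had effects of -1.23 in fat and -2.38 in liver. CAT, catalase, had -0.68 in fat and 0.24 in liver.

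Among genes of insulin signalling and glycogen, 2 of 24 passed as higher in liver, against 0.719% of all genes, both targeting subunits that bring protein phosphatase 1 to glycogen. PPP1R3B was at 17.6, 22.6 and 25.6 FPKM in HD liver and at 9.50, 5.10 and 6.20 FPKM in ND liver, and at 5.14 to 9.02 FPKM in all fat samples. It rose in liver by 1.55 ± 0.22 (adjusted p 0.0122, limma). PPP1R3C was at 23.1, 15.2 and 51.9 FPKM in HD liver and at 7.85, 2.27 and 5.10 FPKM in ND liver, and rose by 2.29 ± 0.45 (adjusted p 0.0420, limma), with an effect of 0.26 in fat. IGF2BP2, a binding protein of IGF2 mRNA, had effects of -0.53 in fat and 0.34 in liver.

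In the circadian clock list, 5 of 18 genes were higher in liver at an unadjusted p below 0.05, against 16.7% of all genes, with 0 in fat. The medians were 0.21 in liver and -0.01 in fat, and the liver median was 0.11 with quantile normalization and 0.12 with median centring. BHLHE41, a repressor of the clock, was at 3.34, 4.84 and 9.27 FPKM in HD liver and at 1.65, 2.24 and 2.62 FPKM in ND liver, and at 1.94 to 2.88 FPKM in HD fat and 4.05 to 4.27 FPKM in ND fat. The diets were apart in both tissues and in opposite directions, with effects of 1.02 and -0.56. CRY2, a cryptochrome, had effects of 0.61 in liver and -0.03 in fat, and PER2, a period gene, 0.82 and 0.12. The hour at which each bird was sampled is not given in the sources used here.

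LDHB, the heart-type lactate dehydrogenase, was at 277, 299 and 273 FPKM in HD liver and at 568, 446 and 487 FPKM in ND liver. It fell there by 0.82 (adjusted p 0.0366, limma) and was at 165 to 202 FPKM in HD fat and 162 to 234 FPKM in ND fat. Of 21 glycolysis genes, 5 had a higher and 1 a lower average effect at an unadjusted p below 0.05, against 9.28% and 4.42% of all genes. Those higher included PGAM1, TPI1 and GPI with effects of 0.58, 0.20 and 0.24 in fat and of 0.21, 0.62 and 0.67 in liver. In amino acid breakdown OAT passed, and PRODH, proline dehydrogenase, and AASS, of lysine breakdown, had effects of -0.82 and -0.99 in liver and of 0.19 and -0.42 in fat. The medians of the gluconeogenesis and amino acid breakdown lists for the difference, -0.28 and -0.17, became 0.37 and 0.20 without ND fat replicate 2. The lipoprotein list had medians of -0.61 in fat and -0.07 in liver over 13 genes, with 4 lower in fat at a p below 0.05, against 3.15% of all genes. Its median difference of -0.78 was -0.51 without that replicate, and its fat median was -0.58. The files held 22 genes of the list, and the others were under the minimum in at least 1 tissue. A gene that reached the minimum in fat through ND values alone had to be lower in HD fat, and such genes were not counted. The part of the liver transcripts seen in ND fat in these values was not tested. The 28 collagen and matrix genes had 0 members at a p below 0.05 in either tissue, with medians of 0.09 in fat and -0.11 in liver.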

How the data were processed

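Abdominal fat and liver of 3 HD and 3 ND chickens were sequenced by the authors on a BGISEQ platform. The authors deposited FPKM values, written to 2 decimals, for 18332 genes per sample. The submitters' processing notes name HISAT2 2.0.4, Bowtie2 2.2.5 and RSEM 1.2.12, while their roles and the genome build are not given in the sources used here. Deposited FPKM values share a scale within a sample, so a few abundant genes lower all others. The files hold no counts, so precision rests on 3 samples per group. Among values within 1.2 times the lowest value of a gene (at least 0.1 FPKM), estimates of relative depth were 0.982 to 1.01. Values above that limit were left out, which holds the estimates close together, so they cannot show that depth was similar.

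Groups were taken from the labels. Genes whose mean reached 1 FPKM in each tissue were transformed as log2(FPKM + 1) and fitted with limma 3.58.1 in R 4.3.3, with 4 group means over all 12 samples, no block and a variance trend (eBayes). Two-sided contrasts gave both diet effects, their difference and their average, with Benjamini-Hochberg adjustment. The fits were tested on simulated data.

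Up to 8 genes per class with the smallest p and a symbol other than a LOC number were named, from genes at an unadjusted p below 0.01 where a class had fewer than 3 called genes, with list members at that p for the difference or the shared effect. Some genes that the rule names are not reported here. Other list members given as examples were chosen after their values were seen. The members and lists were chosen with earlier results of these data known. Gene names come from the files, and 15244 IDs matched the RefSeq table, which named AQP1. The labels do not say whether samples sharing a number come from the same bird, and p-values measure the spread between these samples. The smallest p of an exact permutation of 3 against 3 is 0.1, so single-value tests were not used. Alternatives covered the pseudocount, filter, scaling, variance trend, sample weights, separate fits, a replicate block and each sample left out.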

Additional observations from a re-analysis of the deposited data

Results flagged for a closer look

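The diet effect on GPAM differed between the tissues, by the test of the difference itself. Its difference of effects, fat minus liver, was -1.84 on the log2(FPKM + 1) scale, with an adjusted p of 0.00755 by limma, and all 3 HD samples lay below all 3 ND samples in fat and above them in liver. With the replicate block of 6 birds, which pairs fat and liver samples by number, the adjusted p was 0.103 (limma) and the call was lost.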

How the results depend on the processing

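Counts are of genes higher and lower at an adjusted p of at most 0.05 (limma), in the order of the text. No named gene turned its direction in the contrast that named it, while the near-zero fat effects of COMTD1, MOGAT1, PDIA6 and TMEM120A changed sign with the scaling. Without a filter on low values, 3 and 1 genes passed in fat, 2 were lower for the difference, and 6 and 2 passed for the shared effect. With a minimum of 5 FPKM, 0 passed for the difference, since GPAM was filtered out, and 197 were lower at an unadjusted p below 0.01. With a pseudocount of 0.1, 0 were higher for the shared effect. Quantile normalization gave 45 lower in liver, 0 higher for the shared effect, and 223 higher and 187 lower for the difference at the unadjusted p. Median centring gave 44 lower in liver, 2 lower for the shared effect, and 243 and 190 at the unadjusted p. Sample weights gave 1277 and 294 in liver, 18 and 125 for the difference, 57 and 25 for the shared effect, and 227 and 919 at the unadjusted p. Separate fits per tissue, with fewer samples in each, gave 1 lower in fat and 2 and 5 in liver. With ND fat replicate 2 and ND liver replicate 1 both left out, chosen after seeing the data, the counts were 3 and 2 in fat, 710 and 122 in liver, 2 higher for the difference, 14 and 10 for the shared effect, and 173 and 754 at the unadjusted p. The cause of these changes was not tested beyond what is stated.

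Leaving out each sample in turn gave 0 to 3 higher and 0 lower in fat, 7 to 865 higher and 4 to 153 lower in liver, 0 to 5 higher and 1 to 33 lower for the difference, and 0 to 5 higher and 0 to 6 lower for the shared effect. At the unadjusted p the difference gave 54 to 171 higher and 174 to 847 lower.

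Samples of both tissues that bear the same number shared deviations from their group means, with correlations across 10570 genes, which are not independent, of 0.215 to 0.291 in HD and 0.081 to 0.275 in ND. Within a diet every sample correlated best with its own number, which is a hint from the data, but 1 pair was under 0.1, and the pairing was not used. A replicate block of 6 birds gave 1 higher, CASP14 (adjusted p 0.0215, limma), and 0 lower for the difference, where GPAM had an adjusted p of 0.103. A replicate block on the number alone gave 44 higher in liver, 1 higher for the difference, and 0 and 2 for the shared effect. A replicate block with birds as a random effect gave 4 and 8 for the difference, 0 and 0 for the shared effect, and 179 and 545 at the unadjusted p.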

Other observations

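GPAM and ACSL5, which both rose in HD liver by 1.45 and 1.52, lie near each other in the RefSeq gene order of the GRCg7b assembly.

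A further 5 genes outside the lists were chosen after the calls without ND liver replicate 1 were seen, and form no tested group. DDX5, an RNA helicase, was at 231, 258 and 276 FPKM in HD liver and at 188, 124 and 115 FPKM in ND liver, and at 268 to 303 FPKM in HD fat and 279 to 321 FPKM in ND fat. It rose in liver by 0.87 (adjusted p 0.0418, limma). SRSF2, a splicing factor, rose in liver by 0.74 (adjusted p 0.0166, limma) and had an effect of -0.08 in fat. CCNL2, a cyclin of splicing speckles, OGT, which attaches N-acetylglucosamine to nuclear proteins, and WSB1 had liver effects of 0.73, 0.77 and 0.78 and fat effects of -0.24, -0.22 and -0.29. In liver, ND replicate 1 was the nearest of the ND samples to the HD samples for all 5 genes. Their choice from calls made without that sample favours this pattern, so it is not read as a result.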
